A study of Mus musculus with 3 samples.

Results

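Antiviral interferon-stimulated genes and cytosolic RNA sensor genes were examined in mouse CD4 T cells of 3 cultures. The set was a fixed list of 35 gene symbols, chosen with earlier results of these data known. Each gene's value was the mean of the array probes that carry its symbol alone. The set held 33 measured genes of 19938 in all. Isg15 had only a probe shared with Gm9706, which was equal on all 3 arrays, and Ifi44 had no probe in the platform annotation. Of the 33, 6 were exactly equal (tied) on all 3 arrays (18.2%), against 37.7% of all genes.

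Spleen CD4 T cells of OT-II mice, which carry transgenic receptor chains specific for ovalbumin (strain B6.Cg-Tg(TcraTcrb)425Cbn/J), were sorted as naive and stimulated with the ovalbumin peptide. The presenting cells were spleen cells depleted of T cells and taken from Il23a-/- mice, and this was common to all groups. Th0 cells received no cytokine, Th22 cells IL-6 alone, and Th17 cells IL-6 and TGFβ. After 60 hours each population was purified magnetically, and its total RNA was hybridised to 1 Affymetrix array. The labels give no age for the mice and do not say whether animals were pooled. With 1 array per group there is no replicate check and no test, and every difference describes these 3 arrays. Each deposited value is the distance of a probe from its median of the 3 arrays. The values are read here as log2, which is assumed, so folds rest on that base, and absolute levels are not known.

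Type I interferon binds a receptor on nearly all nucleated cells and, through the kinases JAK1 and TYK2, activates a transcription factor complex that includes IRF9. That complex binds the interferon-stimulated response element (ISRE) and switches on genes whose products sense, cut, modify or trap viral RNA and proteins. RIG-I and MDA5 are helicases that detect viral RNA in the cytosol and signal for more interferon. T cells respond to interferon and can also hold some of these genes at a basal level without infection.

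Upstream sequences were looked up because the ISRE is the element that members of this set are known to share. Of the 35 members 26 had an entry in the RefSeq promoter table (build GRCm38.p6). The 250 bases before each start were searched on both strands for the core of the ISRE, 2 copies of GAAA with any 2 bases between them (TTTC on the opposite strand), with overlapping matches kept. The motif lay in 7 of 26 members (26.9%) and in 936 of 27025 genes of the table (3.46%). The 7 include Isg15, which has 3 matches but no measured value. In a list of other interferon-stimulated genes, described below, the share was higher, 22 of 46 (47.8%). The motif lay in 2 of 6 members that were 2-fold or more below Th22 in Th17, in 3 of 14 that differed less, and in 1 of 4 that were tied. The last 160 bases before the start follow for the 6 members with a motif and a measured value, 5′ to 3′ along the gene's strand, with the ISRE letters in capitals. Those of Ifih1 and Ifitm3 are added because these genes had the lowest values on the Th17 array. The members are ordered from the largest to the smallest difference of Th17 from Th22.
Ifitm3, chr7:141010745-141010904, minus strand: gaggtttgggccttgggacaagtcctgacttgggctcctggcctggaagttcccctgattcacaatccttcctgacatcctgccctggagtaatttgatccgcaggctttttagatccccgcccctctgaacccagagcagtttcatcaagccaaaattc
Ifih1, chr2:62646256-62646415, minus strand: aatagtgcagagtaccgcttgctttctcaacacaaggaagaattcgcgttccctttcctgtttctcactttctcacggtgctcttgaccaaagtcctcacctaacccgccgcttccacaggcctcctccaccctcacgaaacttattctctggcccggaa
Oas3, chr5:120777660-120777819, minus strand: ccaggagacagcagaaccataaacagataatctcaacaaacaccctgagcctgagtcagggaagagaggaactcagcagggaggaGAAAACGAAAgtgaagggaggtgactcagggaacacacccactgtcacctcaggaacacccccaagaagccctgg
Ifitm2, chr7:140955962-140956121, minus strand: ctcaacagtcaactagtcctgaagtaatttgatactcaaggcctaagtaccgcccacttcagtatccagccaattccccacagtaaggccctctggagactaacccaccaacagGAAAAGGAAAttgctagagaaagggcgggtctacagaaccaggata
Ifit1, chr19:34640729-34640888, plus strand: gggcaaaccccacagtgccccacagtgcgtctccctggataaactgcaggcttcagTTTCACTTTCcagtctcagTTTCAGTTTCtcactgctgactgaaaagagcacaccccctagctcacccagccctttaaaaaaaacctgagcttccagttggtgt
Bst2, chr8:71537473-71537632, minus strand: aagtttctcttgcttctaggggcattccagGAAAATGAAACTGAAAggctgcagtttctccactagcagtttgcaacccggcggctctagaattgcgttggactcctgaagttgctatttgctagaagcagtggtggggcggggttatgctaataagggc
Ifit3, chr19:34583369-34583528, plus strand: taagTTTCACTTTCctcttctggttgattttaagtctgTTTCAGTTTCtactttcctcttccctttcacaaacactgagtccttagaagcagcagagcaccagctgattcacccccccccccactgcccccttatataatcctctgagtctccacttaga
Rsad2, chr12:26456453-26456612, minus strand: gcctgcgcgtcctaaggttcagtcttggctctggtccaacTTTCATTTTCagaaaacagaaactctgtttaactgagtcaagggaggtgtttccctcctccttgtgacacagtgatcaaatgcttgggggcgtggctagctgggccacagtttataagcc
Oas3 has 1 match, 75 bases before its start, and Ifitm2 has 1 match 46 bases before. Ifit1 and Ifit3 have 2 matches each, as does Bst2, where they overlap. Rsad2 has 1 match, at 120 bases. Ifih1 and Ifitm3 have no run of these letters in the window, which says nothing of elements elsewhere or of looser matches. A second element, GAS (TTCNNNGAA, the same on either strand), lay in 5 of 26 members (19.2%) and in 2197 of 27025 genes (8.13%). The 5 were Ifit2, Isg20, Eif2ak2, Samhd1 and Bst2. Among the other interferon-stimulated genes GAS lay in 2 of 46 (4.35%).

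The antiviral genes were mostly lowest on the Th17 array, and a few of them by a wide margin. Th17 held the lowest of the 3 values in 25 of 33 members (75.8%), against 19.3% of all genes. Because the list was chosen with earlier results of these data known, this contrast and those below are descriptions. Below Th22 by 2-fold or more in Th17 were 8 of 33 members, namely Ifitm3, Ifih1, Dhx58, Ifitm1, Oas3, Ifitm2, Usp18 and Isg20. Over all genes 1.5% were lower by that much. No member was above Th22 by 2-fold, against 1.1% of all genes. At a fold of 1.5 the count was 13 members (3.37% of all genes). The median difference of the members was -0.27 log2, against 0 over all genes. The edge of the count was close, with Isg20 inside at 2.02-fold and Ddx58 outside at 1.93-fold. With quantile normalization, which forces equal spread on the arrays, Usp18 (1.73-fold) and Isg20 (1.54-fold) were under 2-fold.

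**Figure D1:**
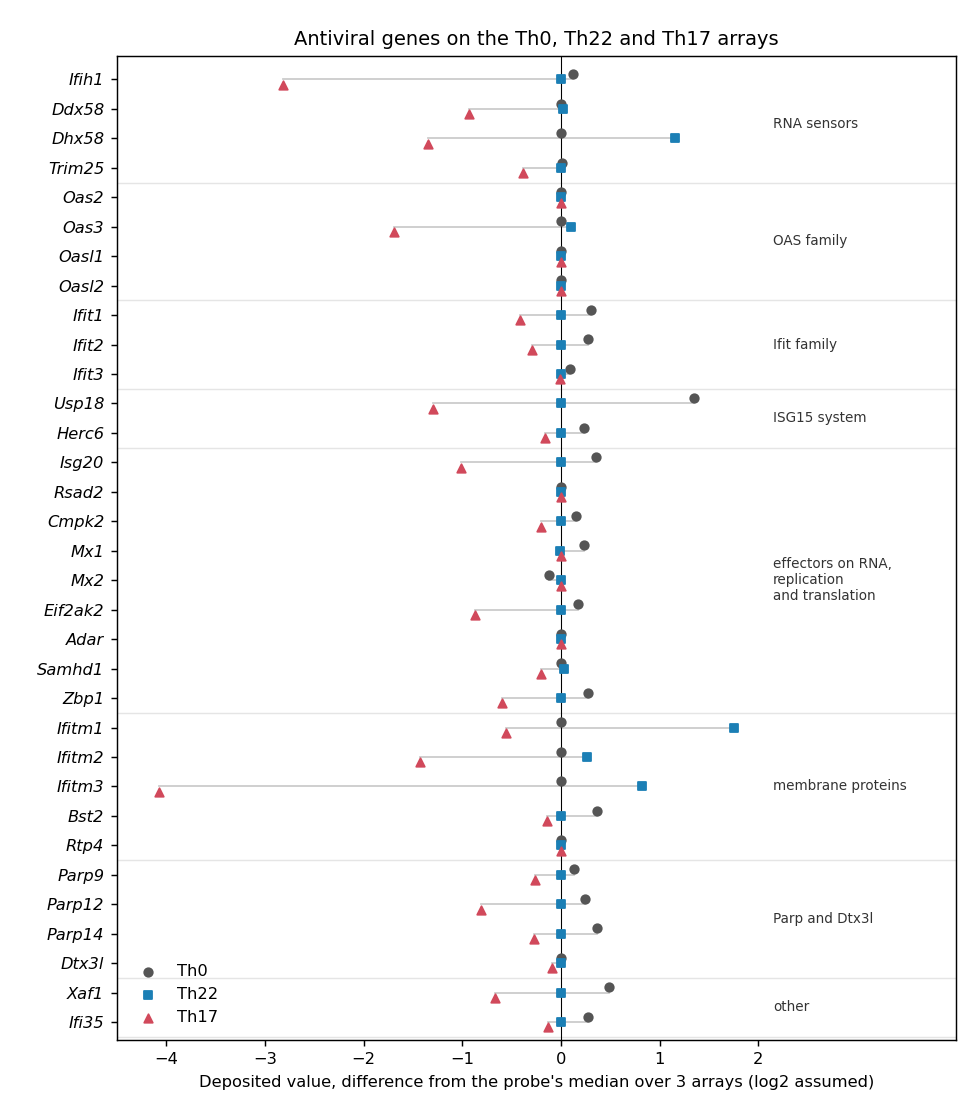
Deposited value of each of the 33 measured members (rows, grouped by role) on the Th0 (circle), Th22 (square) and Th17 (triangle) arrays, as the difference from the probe's median over the 3 arrays on a scale assumed to be log2; there is 1 array per group and no error bar. Th17 is the lowest point in 25 rows, the points coincide in the 6 tied rows, and Ifitm3 reaches -4.08.

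The only repeat measurement on these arrays was between separate probes of a gene. In 829 genes with several probes, at least 1 of them not tied, a pair of probes differed with an SD of 0.20 log2 between Th17 and Th22. Between Th22 and Th0 the SD was 0.15 log2, and between Th17 and Th0 0.21 log2. In 95% of those genes the pair lay within 0.40, 0.32 and 0.43 log2 in the same order. Beyond that limit 14 members were lower in Th17 than in Th22 and 0 higher, where 5.64% and 3.4% of all genes were. Against Th0 17 members were lower in Th17 by more than the limit (4.81% of all genes) and 0 higher (4.15%). The limit holds probe error alone, without any spread among cultures.

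The RNA sensors had the most negative median of the 8 role groups between Th17 and Th22, -1.72 log2 over 4 genes. Ifih1, which encodes the sensor MDA5, had a value of 0.12 in Th0, 0 in Th22 and -2.81 in Th17. Th0 and Th22 were thus close, and Th17 stood alone, 7.04-fold below Th22 and 7.64-fold below Th0. Quantile normalization kept the direction at a smaller size, 3.21-fold against Th22 and 3.47-fold against Th0. Ddx58, which encodes RIG-I, had a value of 0 in Th0, 0.02 in Th22 and -0.93 in Th17. Its shape was that of Ifih1 at a smaller size, 1.93-fold below Th22 and 1.9-fold below Th0.

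Dhx58 encodes LGP2, a relative of both sensors that lacks their signalling domains and tunes them. Its value was 0 in Th0, 1.15 in Th22 and -1.35 in Th17. It was the only sensor gene with Th22 well above Th0 (2.22-fold), and Th17 lay 5.67-fold below Th22 and 2.55-fold below Th0. After quantile normalization the difference of Th17 from Th0 was 1.78-fold, under 2-fold. Trim25, a ubiquitin ligase gene whose product acts on RIG-I, lay at 0.011 in Th0, 0 in Th22 and -0.38 in Th17, the smallest drop of the 4 sensor genes.

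Oligoadenylate synthetases make short adenylate chains that activate RNase L. Of the 4 members in this family Oas3 alone differed between arrays, with 0 in Th0, 0.10 in Th22 and -1.69 in Th17. Th17 was 3.47-fold below Th22 and 3.23-fold below Th0, or 2.19-fold and 2.02-fold after quantile normalization. Oas2, the neighbouring gene in the annotation, and the OAS-like genes Oasl1 and Oasl2 were tied on all arrays. A tie cannot be told apart from a gene that was not detected, so it gives no order for these 3 genes. Of the family's genes outside the set, Oas1b was 1.78-fold and Oas1c 1.44-fold lower in Th17 than in Th22. Oas1a, also outside the set, was not lower, at 0.0063 log2 for Th17 minus Th22.

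The Ifit proteins bind viral RNA, Ifit1 through caps that lack host methylation. Ifit1 had 0.30 in Th0, 0 in Th22 and -0.42 in Th17, which made Th17 1.34-fold below Th22 and 1.65-fold below Th0. Ifit2 had 0.27, 0 and -0.30 in the same order of arrays. Ifit3 had 0.09, 0 and -0.012, and its difference of Th17 from Th22 turned to 0.018 when arrays were centred on the mean of genes that are not tied. The 3 genes followed 1 order, Th0 highest and Th17 lowest, but Ifit1 alone passed the probe limit between Th17 and Th22. Ifit1 and Ifit3 have the ISRE pairs printed above and Oas3 a single match, and a link between motif and difference was not tested.

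Usp18 encodes the protease that removes ISG15 from proteins and also restrains the type I interferon receptor. Its value was 1.35 in Th0, 0 in Th22 and -1.30 in Th17. As deposited, Th22 lay 2.56-fold below Th0 and Th17 2.45-fold below Th22. After quantile normalization the steps were unequal, 3.38-fold and 1.73-fold in the same order. No other member was at least 2-fold lower in Th22 than in Th0. Herc6, which encodes the main ISG15 ligase of the mouse, had 0.23, 0 and -0.16, the same order within 1.31-fold.

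Among the 9 genes for effectors on RNA, replication and translation, the largest difference was in Isg20, an RNA exonuclease gene. It had 0.36 in Th0, 0 in Th22 and -1.02 in Th17. Eif2ak2, which encodes the kinase PKR that halts translation on double-stranded RNA, had 0.17, 0 and -0.87. Th17 was thus 2.06-fold below Th0 in Eif2ak2, or 1.64-fold after quantile normalization. Zbp1, a sensor gene for left-handed nucleic acid, had 0.27, 0 and -0.60. These 3 genes share the order Th0, Th22, Th17 from high to low.

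The other 6 effectors differed little or not at all. Cmpk2, a nucleotide kinase gene, had 0.16, 0 and -0.20, while its neighbour Rsad2, which encodes viperin, was tied. Samhd1, whose product degrades deoxynucleotides, had 0 in Th0, 0.03 in Th22 and -0.20 in Th17. Adar, the RNA-editing deaminase gene, was tied. The dynamin-like GTPase genes Mx1 and Mx2 were the only members that differed without Th17 being lowest. Mx1 had 0.24 in Th0, -0.011 in Th22 and 0 in Th17, and Mx2 had -0.12, 0 and 0.

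The Ifitm genes encode small membrane proteins that hinder fusion of viruses with the cell membrane, and Ifitm3 had the largest difference of the set between Th17 and Th22. Ifitm3 had 0 in Th0, 0.82 in Th22 and -4.08 in Th17. It was 29.9-fold lower in Th17 than in Th22 and 16.9-fold lower than in Th0, and 12.2-fold and 5.69-fold after quantile normalization. Ifitm1 had 0 in Th0, 1.76 in Th22 and -0.56 in Th17, so that Th22 was 3.38-fold above Th0 while Th17 was 1.48-fold below it. Ifitm2 had 0, 0.26 and -1.43, with Th17 3.22-fold below Th22 and 2.69-fold below Th0 (1.82-fold after quantile normalization). The 3 genes lie side by side in the annotation and shared 1 order, Th22 highest and Th17 lowest, with Ifitm1 differing most between Th22 and Th0 and Ifitm3 most between Th17 and either.

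Separate probes gave the same order in each of the Ifitm genes that had several. The 2 Ifitm1 probes had differences of -2.13 and -2.51 log2 for Th17 minus Th22, and of 1.51 and 2.01 log2 for Th22 minus Th0. For Ifitm2 the 3 probes had differences of -1.52, -1.5 and -2.04 log2 for Th17 minus Th22. These genes are close relatives, so the assignment of signal to single members is uncertain. Without the Ifitm, Ifit, Oas, Oasl and Mx families 4 of 21 members lay 2-fold or more below Th22 in Th17.

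**Figure D2:**
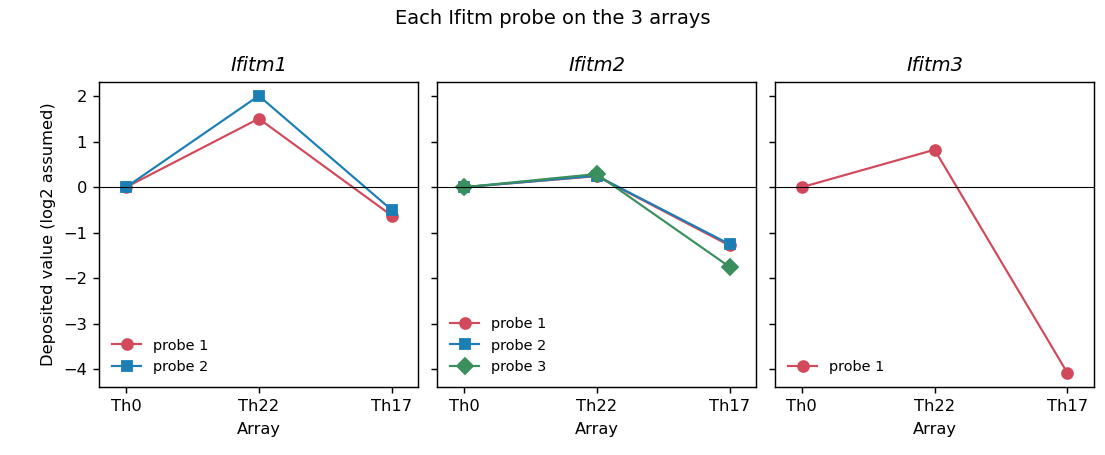
Deposited value (log2 assumed) of each single-symbol probe of Ifitm1, Ifitm2 and Ifitm3 on the Th0, Th22 and Th17 arrays; each line is 1 probe and joins 3 separate cultures. Every probe is highest in Th22 and lowest in Th17, from -0.50 and -0.62 for Ifitm1 to -4.08 for Ifitm3.

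Bst2 and Rtp4 did not share that pattern. Bst2, which encodes tetherin, the protein that holds budding virions at the cell surface, had 0.37 in Th0, 0 in Th22 and -0.14 in Th17. Here Th0 rather than Th22 was highest, and Th17 was 1.42-fold below Th0. Rtp4, a receptor transport protein gene, was tied.

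The ADP-ribosylation genes differed in size but not in direction between Th17 and Th22. Only Parp12 passed the probe limit of 0.40 log2 in that comparison. Parp12, which encodes an ADP-ribosyltransferase active against viruses, had 0.24 in Th0, 0 in Th22 and -0.81 in Th17. It was 2.08-fold below Th0 in Th17, or 1.72-fold after quantile normalization. Parp14, another transferase gene, had 0.37, 0 and -0.27. Parp9 had 0.13, 0 and -0.26, and Dtx3l, which encodes its ubiquitin ligase partner, 0, 0 and -0.09. Parp14, Dtx3l and Parp9 are consecutive genes in the annotation, and Dtx3l between them had the smallest difference.

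Of the remaining members, Xaf1, which encodes a partner of the apoptosis inhibitor XIAP, had 0.49 in Th0, 0 in Th22 and -0.67 in Th17, a 2.24-fold difference of Th17 from Th0. Ifi35, an interferon-induced leucine zipper protein gene, had 0.27, 0 and -0.13.

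Th22 and Th0 differ in IL-6, which Th22 alone of this pair received. The members were spread to either side, with 1 of 33 at least 2-fold lower in Th22, Usp18, and 2 higher, Ifitm1 and Dhx58. Over all genes 0.261% were lower and 0.547% higher. Ifitm3, at 1.77-fold, was the next highest and reached 2.14-fold after quantile normalization, which over all genes moved the split from 52 lower and 109 higher to 158 and 150. The members' median was -0.09 log2. Beyond the probe limit 5 members were lower in Th22 (2.4% of all genes) and 3 higher (4.36%).

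Th17 and Th0 differ in IL-6 with TGFβ. Lower in Th17 by 2-fold or more were 10 of 33 members, namely Ifitm3, Ifih1, Usp18, Oas3, Ifitm2, Isg20, Dhx58, Xaf1, Parp12 and Eif2ak2. Over all genes 1.56% were. No member was 2-fold higher (1.47% of all genes), and the median of the members was -0.51 log2 against 0. Quantile normalization left 6 of the 10, without Dhx58, Eif2ak2, Ifitm2 and Parp12. This comparison is the sum of the other pair and shares their arrays, so its values add no independent measurement.

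**Figure D3:**
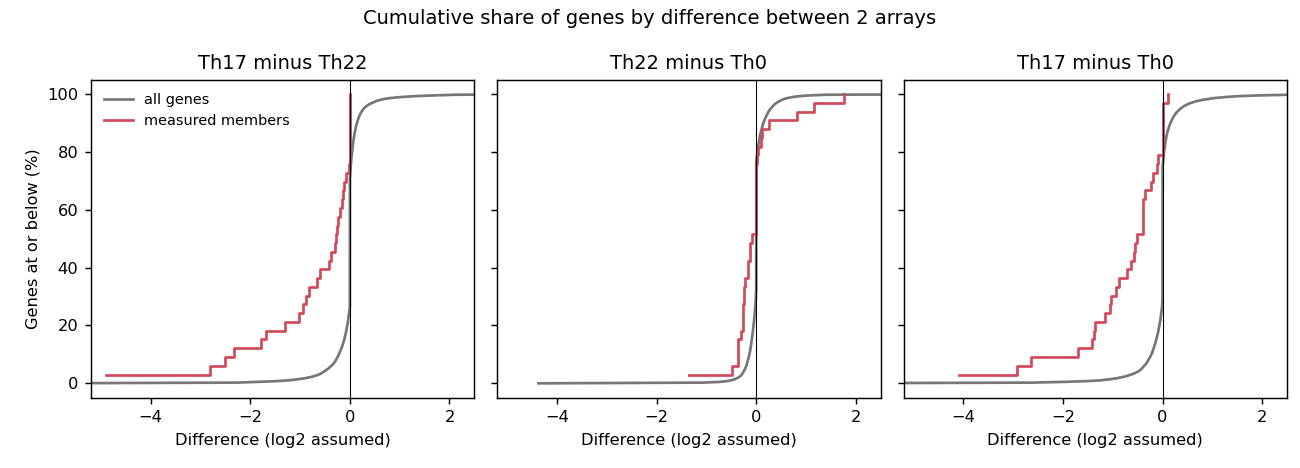
Cumulative percent of the 33 measured members (red steps) and of all 19938 genes (grey) at or below each difference between 2 arrays (log2 assumed), for Th17 minus Th22, Th22 minus Th0 and Th17 minus Th0. The red steps lie left of the grey curve in both Th17 panels, with medians of -0.27 and -0.51, and straddle it for Th22 minus Th0, with a median of -0.09.

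The members were sorted by where Th22 lay. Most of them differed between Th22 and Th0 by less than the probe limit of 0.32 log2. Beyond it 5 of 33 members were lower in Th22 and 3 higher, against 2.4% and 4.36% of all genes. The members thus passed this limit more often than all genes did, in either direction. In 17 members Th0 was highest, Th22 between and Th17 lowest, an order found in 9.72% of all genes. Of these 17 only Usp18, Xaf1, Parp14, Bst2 and Isg20 had Th22 below Th0 by more than the limit. In 7 members (Ifitm1, Ifitm2, Ifitm3, Dhx58, Ddx58, Oas3 and Samhd1) Th22 was highest and Th17 lowest, an order found in 6.84% of all genes. Of these 7 Dhx58, Ifitm1 and Ifitm3 had Th22 above Th0 by more than the probe limit. Among the 6 members of the first order that lay 2-fold or more below Th0 in Th17, the share of that log2 difference that lay between Th22 and Th17 was 96% for Ifih1 and 83.7% for Eif2ak2. It was 77.1% for Parp12, 74% for Isg20, 57.6% for Xaf1 and 48.9% for Usp18. These shares depended on the scaling. After quantile normalization they were 93.8% for Ifih1, 75.2% for Eif2ak2, 63.8% for Parp12 and 57% for Isg20, but 37.1% for Xaf1 and 31% for Usp18. Ifih1 was thus nearly level between Th0 and Th22 on both scales, whereas the larger step of Xaf1 changed sides.

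Upstream of these genes, differences were fewer. Of 15 measured interferon ligand and receptor genes 5 were tied, among them the type I genes Ifnb1, Ifna4, Ifna9 and Ifna11, and only Ifng passed 2-fold. Ifng, the gene of interferon gamma, had 3.06 in Th0, 0 in Th22 and -0.66 in Th17. Ifnar1, which encodes a chain of the type I receptor, had 0.05, 0 and -0.51, and Ifnar2, the other chain, -0.03, 0 and 0. The receptor genes for interferon gamma ran the other way, Ifngr1 with -0.49, 0 and 0.16 and Ifngr2 with -0.28, 0 and 0.42. Median differences of this list were 0 in each comparison.

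Of 7 measured JAK-STAT genes none was 2-fold different between Th17 and Th22, where the list's median was -0.05 log2. Stat2, a subunit of the complex that binds the ISRE, had 0 in Th0, 0.13 in Th22 and -0.47 in Th17. Irf9, its DNA-binding subunit, had 0.11, 0 and -0.05. Socs3, whose product damps IL-6 receptor signals, was 2.13-fold higher in Th17 than in Th0. By this mean of 2 probes, at 1.78-fold and 2.55-fold, it was the only gene of the list past 2-fold in any comparison. Of 15 measured genes for signalling below the sensors none passed 2-fold in any comparison, and 6 were tied, including Mavs, Tbk1 and Irf3. Irf7, the factor that amplifies type I interferon, had 0, 0 and -0.10.

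Other interferon-stimulated genes were mostly lower in Th17 than in Th22. Among the 49 with a value, 37 were lower by any amount, 8 higher and 4 equal, the highest at 0.20 log2. Over all 19938 genes 5237 were lower by any amount, 5827 higher and 8874 equal. Any amount includes differences inside the probe limit. Of the same 49, 8 lay 2-fold or more below Th22 in Th17 and 0 above (1.5% and 1.1% of all genes), and the median was -0.37 log2. Epsti1 was 6.62-fold lower, the ubiquitin ligase family genes Trim30d 4.64-fold and Trim30a 4.55-fold, Ifi27l2a 3.6-fold, Cd274, which encodes PD-L1, 2.78-fold and Slfn1 2.77-fold. Against Th0 12 of 49 were lower in Th17 by 2-fold or more and 0 higher (1.56% and 1.47% of all genes). Between Th22 and Th0 1 was lower (0.261% of all genes), the ISG15-conjugating enzyme gene Ube2l6 (2.69-fold), and the median was -0.013 log2. In a list of 16 interferon gamma-inducible genes, mostly GTPases and immunoproteasome subunits, 4 lay 2-fold or more below Th0 in Th22, 7 below Th22 in Th17 and 12 below Th0 in Th17, and the medians were -0.59, -0.93 and -1.40 log2. Over all genes 0.261%, 1.5% and 1.56% were lower by 2-fold or more in the same order of comparisons. These lists were chosen with results of these data known, and their counts are descriptions.

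**Figure D4:**
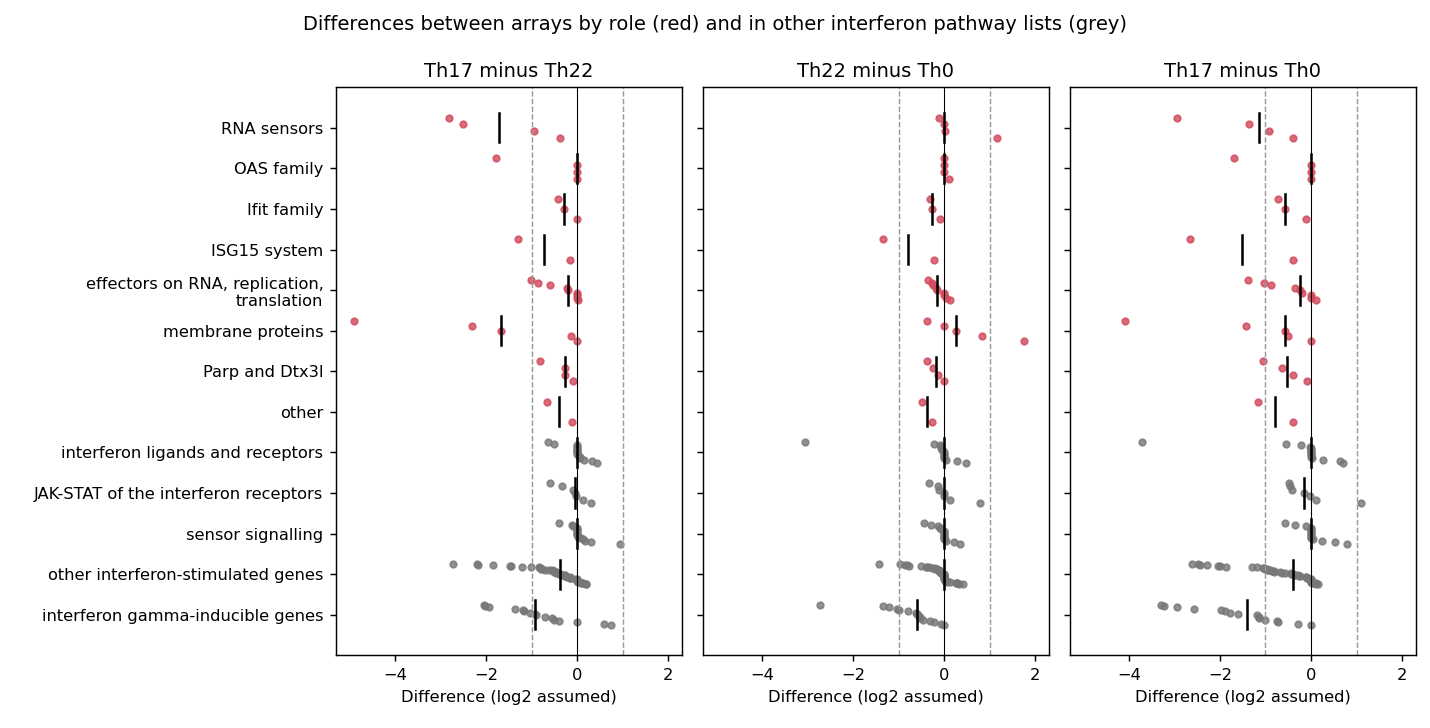
Difference between 2 arrays (log2 assumed) for each gene of the member roles (red) and of 5 other lists (grey); a point is 1 gene, the black bar the list's median, and dashed lines mark 2-fold. The points of the sensors and membrane proteins reach furthest left in Th17 minus Th22, with medians of -1.72 and -1.69, whereas the medians there are 0 for ligands and receptors, -0.05 for JAK-STAT genes and 0 for sensor signalling.

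The arrays were also read for other cells that the cultures held. In bulk RNA fewer cells of a type and less RNA per cell cannot be told apart. Because levels were removed by the centring, summed marker levels and the presence of the labelled cell type cannot be read. Of 11 myeloid and dendritic cell markers 6 were tied, including Csf1r and Itgax, and none passed 2-fold in any comparison. Of 6 plasmacytoid dendritic cell markers 2 were tied, Siglech and Ccr9, and none passed 2-fold. Bst2, 1 of these 6, is also a member of the antiviral set. Of 7 B cell markers 4 were tied, including Cd79a and Pax5, and only Ebf1 passed 2-fold (6.36-fold lower in Th17 than in Th22). Of 8 NK and CD8 markers Gzma (4.85-fold) and Cd8b1 (2.2-fold) were lower in Th17 than in Th22 and Klrd1 (7.55-fold) higher, and the part of such cells in the members' values was not tested. None of 10 pan T cell genes passed 2-fold. Their median was -0.28 log2 between Th17 and Th22, which is close to the members' own median of -0.27, and 0.12 log2 between Th22 and Th0. The part of that shift in the members' values was not tested. For Th17 against Th0 the pan T cell median was 0.013 log2, where the members' median was -0.51.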

How the data were processed

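The deposited table held 28853 probes of 3 single-colour Affymetrix arrays, 1 each for Th0, Th22 and Th17 by the labels' subset, as deposited values assumed to be log2 differences from each probe's median over the arrays, which was 0 for 100% of probes. The median of each column was 0. For normalization, probe summary, log base, software and build the status is: not given in the sources used here. Higher values were read as more RNA. Of the probes 11627 (40.3%) were equal on all 3 arrays. Another 7007 were equal on 2, with the remaining array higher in 3390 and lower in 3617, so these ties do not all sit at a lower limit.

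Probes with 1 symbol (21789) were named from the platform annotation, of which 21698 were matched by Entrez identifier, and averaged per gene. Probes with several symbols (1621) or not listed (5443) were left out. Genes were counted at a fold of 2, with no test. The counting was tested on simulated data. Promoters came from RefSeq. The named genes were all members and, in other lists, genes past 2-fold with at most 8 per list, while pathway genes inside 2-fold were named after their values were seen. Members and lists were chosen with earlier results of these data known. Python 3.11.15, pandas 2.3.3, numpy 2.4.6 and matplotlib 3.10.9 were used.

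The alternatives were quantile normalization, centring on genes not tied, probes with several symbols, the probe with the smallest difference, a fold of 1.5, natural logs, and leaving out tied members or gene families.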

Additional observations from a re-analysis of the deposited data

How the results depend on the processing

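No paired analysis was possible because each group had 1 array, and no array could be left out. The number of arrays limits the precision, and signal over background is unknown. The median difference of the members kept its sign in all 3 comparisons under each alternative, and no member past 2-fold turned. Quantile normalization lowered the count of members 2-fold or more below Th0 in Th17 from 10 to 6, and raised the count of all genes lower in Th22 than in Th0 from 52 to 158. At a fold of 1.5, 13 members in place of 8 were lower in Th17 than in Th22. With natural logs the median for Th17 against Th0 was -0.74 in place of -0.51 log2. Without the Ifitm, Ifit, Oas, Oasl and Mx families 4 members in place of 8 were lower in Th17 than in Th22, and 1 in place of 2 higher in Th22 than in Th0, the families being members of those counts. The cause of the other changes was not tested.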

Other observations

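Nlrc5, which encodes a regulator of class I presentation genes and was among the other interferon-stimulated genes, had 19 probes with its symbol alone. All 19 were lower in Th22 than in Th0, from -1.09 to -0.31 log2 with a median of -0.81. In Th17 17 of 19 were lower than in Th22, with a median of -0.38 log2 and a highest value of 0.04. The probes share 1 gene and the same 3 arrays, so they are no replicates of the cultures, and their range shows how far probes of 1 gene can lie apart. By its mean Nlrc5 followed the order Th0, Th22, Th17 from high to low, as did 17 of 33 members, Usp18 among them. Its mean difference of Th17 from Th22, -0.27 log2, lay inside the probe limit of 0.40 log2.

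Members that are consecutive protein-coding genes in the annotation mostly had unequal values, some of them inside the probe limit. For Th17 minus Th22, Oas2 was tied while Oas3 had -1.79 log2. Rsad2 was tied while Cmpk2 had -0.20 log2. Ifit2 had -0.30 log2 and Ifit3 -0.012 log2. The values of Cmpk2, Ifit2 and Ifit3 lay inside the probe limit of 0.40 log2, and a tied gene may not have been detected. The single pair with equal values in all comparisons was Oasl2 and Oasl1, which were tied.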
